A study of Homo sapiens with 12 samples.

Results

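The 9 genes described here encode amino acid transporters that are textbook targets of the transcription factor ATF4: SLC7A11, SLC7A5, SLC3A2, SLC7A1, SLC1A4, SLC1A5, SLC38A1, SLC38A2 and SLC6A9. They were picked by name out of 19775 genes with a probe set, and each was represented by the probe set that carries its symbol alone and has the highest mean over the 12 arrays. Of the 9 genes, 8 exceeded a log2 value of 4 on at least 2 arrays and were tested together with the other 10561 genes that did so, a total that includes them. The family was chosen with earlier results of these arrays known, among them the low SLC7A11 of treated RS4:11 cells, so its differences from vehicle in that line are given as a description and their p-values support nothing. The same holds for other comparisons of the family that use the RS4:11 vehicle arrays.

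The study used SEM-K2 and RS4:11, a pair of established cell lines from acute lymphoblastic leukemia that both carry the KMT2A-AFF1 (MLL-AF4) fusion. Each line received vehicle, obatoclax at its EC50 (the effective concentration from a 72 h assay) or obatoclax at 3 times that concentration (3xEC50), and RNA was taken after 6 h. Obatoclax is a small molecule that occupies the groove of antiapoptotic BCL2 family proteins. Each of the 6 groups had 2 arrays, which the design text calls biologic replicates. The groups are SEM-K2 vehicle, SEM-K2 EC50, SEM-K2 3xEC50, RS4:11 vehicle, RS4:11 EC50 and RS4:11 3xEC50, with no genetic change made in any of them, so a difference between the lines is a difference between 1 line and 1 other. Values are log2 GCRMA intensities, on which a difference of 1 is a doubling, and levels of different probe sets were not compared.

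ATF4 is made when kinases that sense stress phosphorylate the initiation factor eIF2alpha, and it binds amino acid response elements, composite sites shared with C/EBP proteins. Its targets bring amino acids into the cell, synthesize them and charge them onto tRNA. SLC7A11 exchanges glutamate for cystine and so supplies the cysteine of glutathione. SLC7A5 exchanges large neutral amino acids such as leucine, and both proteins need the heavy chain encoded by SLC3A2 to reach the membrane.

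Promoter windows from 250 bases before to 50 after the transcription start were matched for 8 of the 9 genes, all but SLC7A11 (RefSeq, GRCh38.p14, 14 windows). The following stretches are shown because they contain the letters of the response element, TGATGNAA, or its other strand, TTNCATCA, in capitals, each read 5′ to 3′ on the strand of its gene.
SLC1A4, chr2:64989381-64989410, plus strand: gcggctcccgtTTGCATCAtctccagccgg
SLC3A2, chr11:62881725-62881748, plus strand: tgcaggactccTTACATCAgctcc
SLC38A1, chr12:46266502-46266531, minus strand: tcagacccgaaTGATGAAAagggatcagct
SLC7A1, chr13:29595663-29595692, minus strand: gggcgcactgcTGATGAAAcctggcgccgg
SLC1A5, chr19:46784893-46784922, minus strand: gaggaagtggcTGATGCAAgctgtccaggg
On both strands, 5 of the 14 windows held TGATGNAA, against 3.62% of all 35116 windows in the table. The form with C at the open position, TGATGCAA, stood in 2 of them, those of SLC1A4 and SLC1A5, against 0.866% of all windows. SLC7A5, SLC38A2 and SLC6A9 had no such match. The SLC7A5 window is shown for the E-box CACGTG, the core site of MYC and related factors, which 7.26% of all windows held.
SLC7A5, chr16:87869621-87869648, minus strand: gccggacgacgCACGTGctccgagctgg
A second E-box lay in a window of SLC1A5. The core letters of the antioxidant response element, TGACNNNGC, on either strand, stood in 4 of the 14 windows and in 13.3% of all, and neither of these motifs overlapped a TGATGNAA match. A match is a string of letters in the window and says nothing of occupancy.

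The arrays resembled their labels. Of 9 measured B cell precursor markers, 6 exceeded a log2 value of 4 on all 12 arrays, among them CD79A, PAX5 and EBF1. BLNK and RAG1 did so on 6 arrays and DNTT on 7, with medians of 2.75, 2.99 and 3.67 in SEM-K2 against 7.47, 10.2 and 9.05 in RS4:11. Both measured genes of the KMT2A fusion programme, MEIS1 and PROM1, exceeded it on all arrays, and all 6 T and NK cell markers stayed below it. The exceptions among other lineages were CSF1R (1 of 5 myeloid genes), ITGA2B (1 of 3 erythroid and megakaryocyte genes) and COL1A1 and KRT8 (2 of 6 fibroblast and epithelial genes). SEM-K2 3xEC50 replicate 2 stood apart in RNA quality, with an ACTB 3′ minus 5′ difference of 1.97 against 0.867 to 1.23 on the other 11 arrays. RS4:11 vehicle replicate 1 stood apart in 18S ribosomal signal, 9.85 against 5.20 to 6.98 elsewhere. Where a difference, a median of the 8 members or a call moved by over 1.5 times or was lost without one of these arrays, the value without it is given beside it. Medians of the gene lists, and probe sets other than the second one of SLC7A11, were not refitted in this way.

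In RS4:11, the treated arrays of the cystine and leucine exchangers and their heavy chain lay below the vehicle arrays at both doses. SLC7A11 read 7.63 and 6.88 on the 2 RS4:11 vehicle arrays, 5.91 and 4.35 at EC50 and 5.71 and 4.70 at 3xEC50. All 4 treated arrays were below both vehicle arrays, and replicate 2 was the lower array in each group. The mean of both doses differed from vehicle by -2.09 ± 0.45 (SE) log2 units, 4.24-fold lower. Over all genes, limma gave this difference an adjusted p of 0.277, and 0.0410 with the replicate number as a block, with a smaller error of the same difference. Without RS4:11 vehicle replicate 1, the log2 difference was -1.71. In bulk RNA, fewer cells holding a transcript and less transcript per cell cannot be told apart.

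SLC7A5 was also lower on the treated arrays of RS4:11. It read 11.02 and 11.04 on the vehicle arrays, 10.39 and 9.94 at EC50 and 10.26 and 9.75 at 3xEC50. Both vehicle arrays were above all 4 treated arrays. The mean of both doses lay at -0.95 ± 0.20 log2 against vehicle, 1.93-fold lower, with a limma adjusted p of 0.264, or 0.0462 with the replicate block and 0.0512 with a block in each line separately. SLC3A2, the heavy chain shared by SLC7A5 and SLC7A11, read 9.35 and 9.06 in RS4:11 vehicle, 8.62 and 8.55 at EC50 and 8.65 and 8.47 at 3xEC50. Again no treated array reached a vehicle array. Its mean difference was -0.63 ± 0.14 log2, 1.55-fold lower, with an adjusted p of 0.286, or 0.0936 with the replicate block.

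SLC7A1, which carries the cationic amino acids arginine and lysine, was the fourth gene of the family with this separation. In RS4:11 it read 11.12 and 11.43 on vehicle arrays, 10.79 and 10.64 at EC50 and 10.65 and 10.57 at 3xEC50. Its mean difference was -0.61 ± 0.18 log2, 1.52-fold lower, with an adjusted p of 0.544. Without RS4:11 vehicle replicate 1 the log2 differences were -0.95 for SLC7A5, -0.48 for SLC3A2 and -0.76 for SLC7A1.

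**Figure D1:**
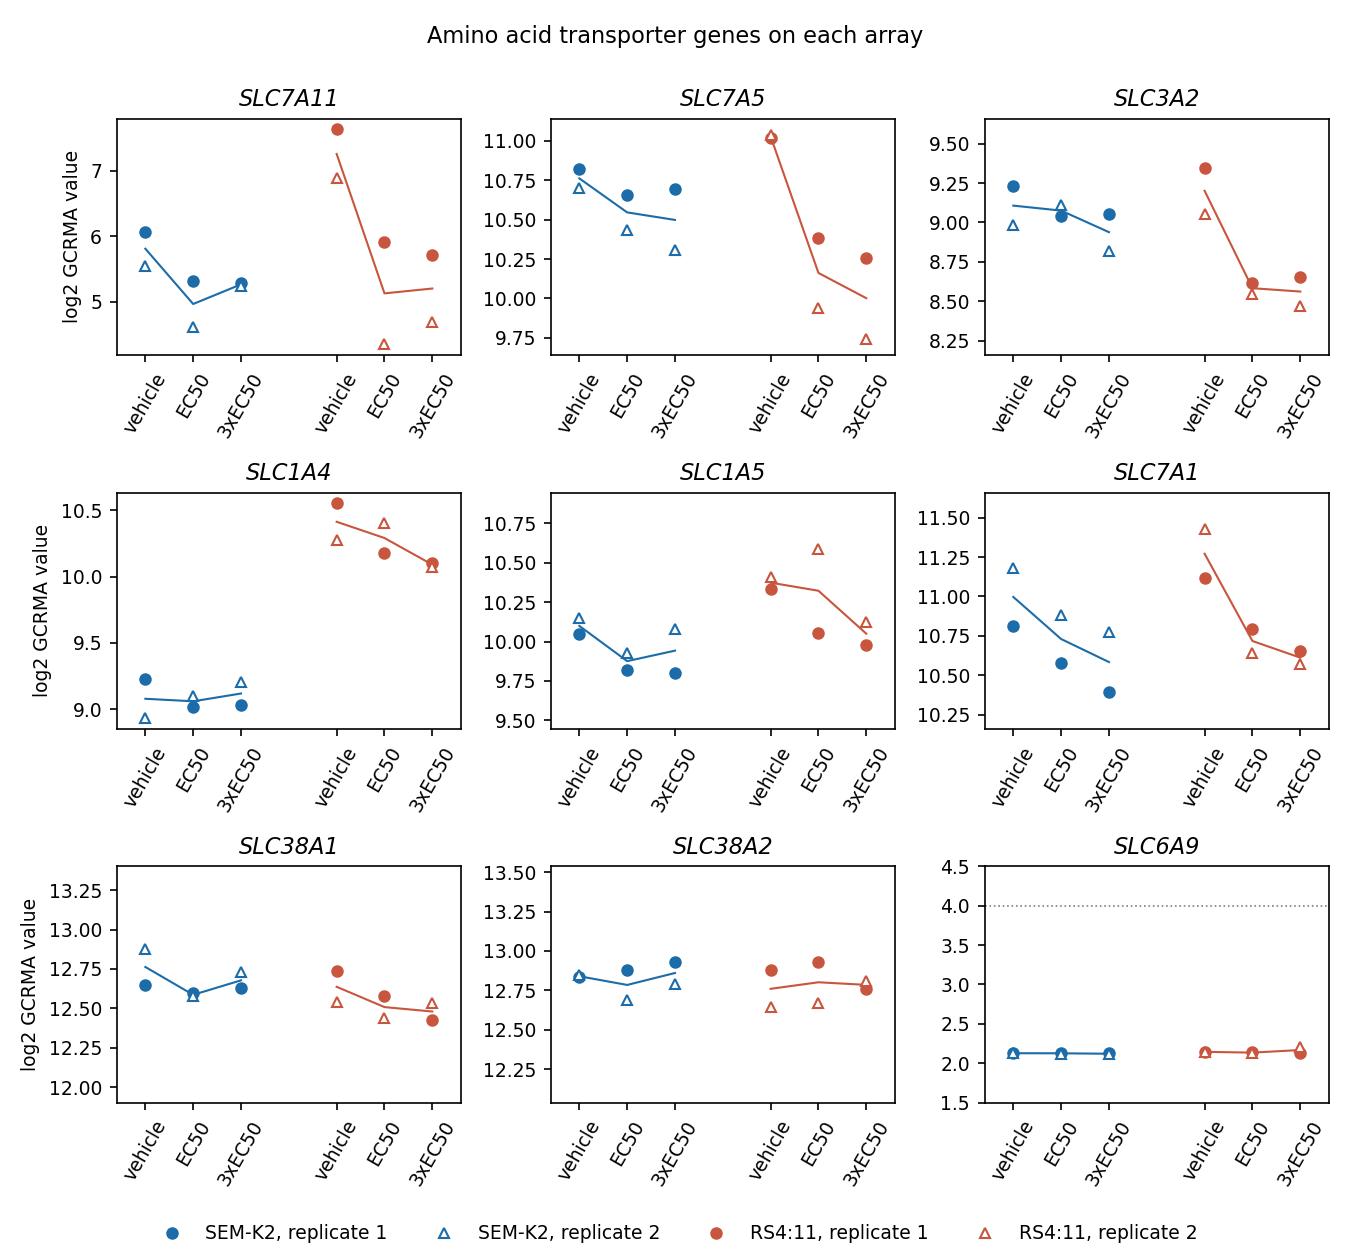
Log2 GCRMA value of each of the 9 transporter genes (1 panel a gene, with its own vertical axis) on every array, by dose within SEM-K2 (left, blue) and RS4:11 (right, red). Filled circles are replicate 1, open triangles replicate 2, lines join the means of the 2 arrays, and a dotted line marks the log2 value of 4. In RS4:11 the treated arrays of SLC7A11, SLC7A5, SLC3A2 and SLC7A1 all lie below the vehicle arrays, and SLC6A9 stays between 2.11 and 2.20 everywhere.

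On the probe sets that stand for them, the neutral amino acid carriers differed less from vehicle in RS4:11. Other probe sets of SLC1A4 and SLC38A1 are given further below. SLC1A4, a carrier of alanine, serine and cysteine, read 10.55 and 10.27 on vehicle arrays, 10.18 and 10.40 at EC50 and 10.10 and 10.07 at 3xEC50. SLC1A5, the glutamine carrier, read 10.34 and 10.41, then 10.06 and 10.59, then 9.98 and 10.12 in the same order of doses. For both genes the EC50 arrays overlapped vehicle, and only the 3xEC50 arrays lay below it, by -0.32 ± 0.17 log2 for SLC1A4 (-0.18 without RS4:11 vehicle replicate 1) and -0.32 ± 0.19 for SLC1A5. The sodium-coupled carriers SLC38A1 and SLC38A2 differed from vehicle by -0.16 to 0.04 log2 at the 2 doses, or -0.06 to 0.16 without RS4:11 vehicle replicate 1, and their 95% confidence intervals at 3xEC50 ran from -0.49 to 0.17 and from -0.33 to 0.38. SLC6A9, the glycine carrier, stayed under the threshold on all arrays, between 2.11 and 2.20, so it was not tested and no fold is given.

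By counts, no member was called at either RS4:11 dose at an adjusted p of 0.05, where 0% of all genes tested were called. At an unadjusted p of 0.05, 4 of the 8 passed at EC50 and 4 at 3xEC50, where 4.2% and 4.9% of all genes did. These were SLC7A11, SLC7A5, SLC3A2 and SLC7A1 both times. In the mean of both doses the same 4 passed, against 5.93% of all genes. With the replicate block, SLC7A11 and SLC7A5 were called in that mean, 2 of 8, where 0.161% of all genes were, and with a block in each line SLC7A11 alone, where 0.246% were. Both EC50 arrays lay below both vehicle arrays for 4 of 8 members (12.9% of all genes), both 3xEC50 arrays for 7 of 8 (15.9% of all genes), and all 4 treated arrays for 4 of 8 (8.3% of all genes). SLC38A2 was the exception at 3xEC50. Leaving out RS4:11 vehicle replicate 2 or RS4:11 EC50 replicate 2 turned the last count into 6, against 20.3% and 12.8% of all genes, and without RS4:11 vehicle replicate 1 it was 4, against 21.4%. The median log2 difference of the 8 members was -0.34 at EC50 and -0.48 at 3xEC50, against 0.024 and 0.017 over all genes.

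In SEM-K2 the same genes lay closer to vehicle. SLC7A11 read 6.07 and 5.55 on vehicle arrays, 5.31 and 4.62 at EC50 and 5.29 and 5.25 at 3xEC50. All 4 treated arrays were below both vehicle arrays, but the mean log2 difference of both doses was -0.69 ± 0.45, with an interval from -1.70 to 0.32 and an adjusted p of 0.680. SLC7A5 read 10.82 and 10.70, then 10.66 and 10.44, then 10.69 and 10.30 by rising dose, again with no overlap, at a mean difference of -0.24 ± 0.20. Without SEM-K2 3xEC50 replicate 2 these mean differences were -0.68 for SLC7A11 and -0.14 for SLC7A5.

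SLC3A2 in SEM-K2 read 9.23 and 8.98 on vehicle arrays, 9.04 and 9.11 at EC50 and 9.06 and 8.82 at 3xEC50, so that the groups overlapped. SLC7A1 read 10.81 and 11.18 on vehicle arrays, 10.57 and 10.89 at EC50 and 10.39 and 10.77 at 3xEC50, and only its 3xEC50 arrays lay below both vehicle arrays. Its difference at 3xEC50 was -0.41 ± 0.20 log2, and -0.60 without SEM-K2 3xEC50 replicate 2. SLC1A4 stayed between 8.93 and 9.23 on all 6 SEM-K2 arrays, SLC1A5 between 9.80 and 10.15, SLC38A1 between 12.58 and 12.88 and SLC38A2 between 12.69 and 12.93. The largest difference from vehicle among these 4 genes was -0.22 log2, for SLC1A5 at EC50. Without SEM-K2 3xEC50 replicate 2 the largest was -0.30 log2, for SLC1A5 at 3xEC50.

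No member was called in SEM-K2, at EC50, 3xEC50 or their mean, where 0.17%, 0.824% and 0.748% of all genes were, and none passed an unadjusted p of 0.05, where 5.47%, 11.7% and 10.2% did. Both EC50 arrays lay below both vehicle arrays for 4 of 8 members (SLC7A11, SLC7A5, SLC1A5 and SLC38A1), against 11.8% of all genes. Both 3xEC50 arrays did so for 3 of 8 (SLC7A11, SLC7A5 and SLC7A1), against 14% of all genes. All 4 treated arrays did so for 2 of 8, SLC7A11 and SLC7A5, against 5.98% of all genes. Without SEM-K2 3xEC50 replicate 2 the last count was 4, against 9.13% of all genes. It was 5 without SEM-K2 vehicle replicate 1 and 4 without SEM-K2 vehicle replicate 2, against 16.3% and 18.1% of all genes. No member had both arrays of a dose above both vehicle arrays in either line, where 21.8% (SEM-K2 EC50), 22.6% (SEM-K2 3xEC50), 17.5% (RS4:11 EC50) and 18.4% (RS4:11 3xEC50) of all genes did, nor all 4 treated arrays above them, where 12.4% in SEM-K2 and 10.8% in RS4:11 did. The median difference of the 8 members was -0.20 at EC50 and -0.16 at 3xEC50 (-0.10 without SEM-K2 3xEC50 replicate 2), against 0.054 and 0.061 over all genes.

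**Figure D2:**
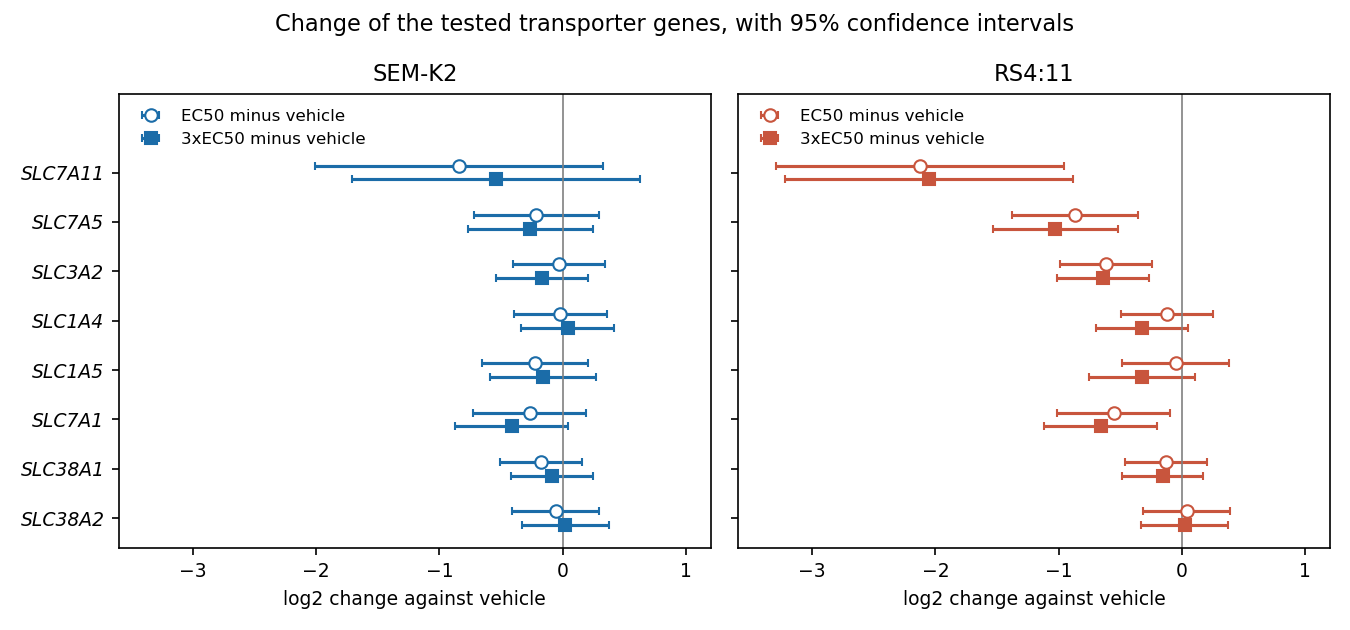
Log2 change of the 8 tested transporter genes at EC50 (open circles) and 3xEC50 (filled squares) against vehicle in SEM-K2 (left) and RS4:11 (right), with 95% confidence intervals from the limma fit. The RS4:11 intervals of SLC7A11, SLC7A5, SLC3A2 and SLC7A1 lie below 0 at both doses, and every SEM-K2 interval crosses 0.

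Whether the lines responded differently was tested as the treatment difference in SEM-K2 minus that in RS4:11. For the mean of both doses this was 1.39 ± 0.64 log2 for SLC7A11, 0.71 ± 0.28 for SLC7A5, 0.53 ± 0.20 for SLC3A2 and 0.27 ± 0.25 for SLC7A1, and the other 4 genes lay between -0.05 and 0.23. Without SEM-K2 3xEC50 replicate 2 it was 1.40 for SLC7A11, 0.80 for SLC7A5, 0.59 for SLC3A2 and 0.17 for SLC7A1, with the other 4 between -0.07 and 0.19. Without RS4:11 vehicle replicate 1 it was 1.02 for SLC7A11, 0.71 for SLC7A5, 0.38 for SLC3A2 and 0.42 for SLC7A1, with the other 4 between -0.17 and 0.09. Intervals excluded 0 for SLC7A5 (0.08 to 1.33) and SLC3A2 (0.07 to 0.99), with unadjusted p under 0.05, as for 2.81% of all genes. Because this contrast contains the RS4:11 differences known before the family was chosen, its intervals and p-values are a description and support nothing. No member was called after adjustment at EC50, 3xEC50 or their mean, where 0.00947%, 0.0379% and 0.0663% of all genes were called, so a difference between the lines was not shown for any member. No step between doses was shown. Its 95% interval for SLC7A11 ran from -0.87 to 1.47 log2 in SEM-K2 and from -1.09 to 1.24 in RS4:11. The change at 3xEC50 against EC50 ran from -0.15 (SLC7A1) to 0.30 (SLC7A11) in SEM-K2, or -0.34 to 0.32 for the same genes without SEM-K2 3xEC50 replicate 2, and from -0.27 (SLC1A5) to 0.07 (SLC7A11) in RS4:11, with no member called and 0% of all genes called.

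Before drug, SLC1A4 was the member with the smallest adjusted p between the lines. It read 9.23 and 8.93 on SEM-K2 vehicle arrays, against 10.55 and 10.27 on RS4:11 vehicle arrays. All 6 SEM-K2 arrays lay below all 6 RS4:11 arrays. The vehicle difference of -1.33 ± 0.17 log2, 2.52-fold lower in SEM-K2, had an adjusted p of 0.000383 (-1.19 and 0.00487 without RS4:11 vehicle replicate 1), and SLC1A4 was the only member called of 8, where 19.6% of all genes were. Of the 4 other SLC1A4 probe sets, 3 gave vehicle differences of -1.45 to -1.53 log2, with adjusted p from 0.00301 to 0.0199 in a fit of every probe set, in which 6.94% of all probe sets were called lower. The fourth, 244377_at, averaged under 4 in SEM-K2 vehicle, so it has only a bound, at least 4.38-fold lower in SEM-K2 (adjusted p = 0.0403).

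SLC7A11 was also lower in SEM-K2 vehicle, at 6.07 and 5.55, against 7.63 and 6.88 in RS4:11 vehicle, a difference of -1.44 ± 0.52 log2 with no overlap, or -1.07 without RS4:11 vehicle replicate 1 (adjusted p = 0.336). This comparison shares the RS4:11 vehicle arrays with differences known before the family was chosen. Its p-values are therefore a description and support nothing. The adjusted p of SLC7A11 was 0.0875, 0.00555 with the replicate block (26.8% of all genes called) and 0.00132 with the block in each line (23.6%). Leaving out RS4:11 EC50 replicate 1 or 2, which changes only the error here, gave 0.0361. The remaining 6 members differed between the lines by -0.27 to 0.13 log2 on vehicle, or -0.43 to 0.22 without RS4:11 vehicle replicate 1. Both SEM-K2 vehicle arrays lay below both RS4:11 vehicle arrays for 4 of 8 members, SLC7A11, SLC7A5, SLC1A4 and SLC1A5, and 26.8% of all genes did so.

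Ordered by mean level, SLC7A11 was highest in RS4:11 vehicle (7.25 ± 0.53, SD, n = 2), followed by SEM-K2 vehicle (5.81 ± 0.37) and the 4 treated groups between 4.97 and 5.27, whose arrays overlapped with one another. The RS4:11 treated arrays, up to 5.91, also reached the lower SEM-K2 vehicle array. SLC7A5 and SLC3A2 were highest in RS4:11 vehicle and lowest in RS4:11 3xEC50, with RS4:11 EC50 next to last and the 3 SEM-K2 groups between. The SEM-K2 group means spanned 10.50 to 10.76 for SLC7A5 and 8.94 to 9.11 for SLC3A2. SEM-K2 arrays overlapped between all doses for SLC3A2, and between EC50 and 3xEC50 for SLC7A5. For SLC1A4 the 3 RS4:11 groups, 10.09 to 10.41, stood above the 3 SEM-K2 groups, 9.06 to 9.12, whatever the treatment. The 6 group means spanned 10.58 to 11.27 for SLC7A1, 9.88 to 10.37 for SLC1A5, 12.48 to 12.76 for SLC38A1 and 12.76 to 12.86 for SLC38A2.

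Other probe sets of the genes gave the same picture for some members and another for others. Between them the 9 genes had 24 probe sets with a single symbol. A second SLC7A11 probe set, 217678_at, read 6.47 and 6.24 on RS4:11 vehicle arrays, 3.91 and 3.79 at EC50 and 3.70 and 3.25 at 3xEC50. It read 3.93 and 4.68 on SEM-K2 vehicle arrays, 3.72 and 3.71 at EC50 and 3.64 and 3.28 at 3xEC50. The treated arrays of both lines lay under the log2 threshold of 4, so with the treated arrays set to 4 the difference in RS4:11 has only a bound, at least 5.11-fold lower. This probe set also read under 4 on SEM-K2 vehicle replicate 1, so no difference is read for it in SEM-K2. The fit used its values as deposited, so the RS4:11 sizes that follow rest on treated arrays under 4. Tested among 24865 probe sets, it lay at -2.51 ± 0.27 log2 at EC50 (adjusted p = 0.0546), -2.88 ± 0.27 at 3xEC50 (0.0239, and 0.0524 with the replicate block in each line) and -2.69 ± 0.23 in the mean of both doses (0.0101) in RS4:11. Probe sets called lower made up 0%, 0.00804% and 0.00804% of all. It was called in 0, 8 and 12 of 19 alternative settings, with adjusted p in the mean from 0.00858 to 0.451, the highest when only the RS4:11 arrays were fitted. Without RS4:11 vehicle replicate 1 the adjusted p was 0.125 at 3xEC50 and 0.0949 in the mean, and without SEM-K2 3xEC50 replicate 2 it was 0.0755 at 3xEC50. It reads the same RNA as the other probe set, and 9 of its 12 values lay under 4, where GCRMA values vary little. On vehicle the fit gave -2.05 ± 0.27 log2 in SEM-K2 against RS4:11 (adjusted p = 0.000895), called in all 18 alternative settings that could be fitted. SEM-K2 vehicle replicate 1 lay under 4, at 3.93, so this size is not read. The comparison also shares the RS4:11 vehicle arrays with the differences known beforehand, so its p-values support nothing. The third, 207528_s_at, stayed between 1.86 and 1.89.

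For SLC7A1, 212290_at gave mean log2 differences of -0.75 ± 0.39 in SEM-K2 and -0.86 ± 0.39 in RS4:11, and 212292_at -0.49 ± 0.34 in SEM-K2 and -0.07 ± 0.34 in RS4:11. On SEM-K2 3xEC50 replicate 2, the array with the high ACTB 3′ minus 5′ difference, the 2 probe sets read 6.34 and 4.67, against 7.71 and 5.59 on replicate 1. The part of RNA quality in these values was not tested. In RS4:11, SLC38A1 differed by -0.56 ± 0.21 on 218237_s_at and -0.40 ± 0.17 on 224580_at, against -0.14 ± 0.13 on the probe set that stands for the gene. Without RS4:11 vehicle replicate 1 this last difference was -0.04. All 3 SLC38A2 probe sets stayed between -0.02 and 0.14 in both lines. The 1 that stands for the gene gave 0.15 in RS4:11 without vehicle replicate 1. The SLC1A4 probe set 244377_at lay under 4 on 5 of 6 SEM-K2 arrays, where no difference is read, and gave -1.29 ± 0.53 in RS4:11. None of these differences was called. By rising dose from vehicle, the RS4:11 means of SLC1A4 on 209611_s_at were 7.74, 7.14 and 7.25. They were 9.20, 9.02 and 8.80 on 212810_s_at and 9.95, 9.81 and 9.66 on 212811_x_at.

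**Figure D3:**
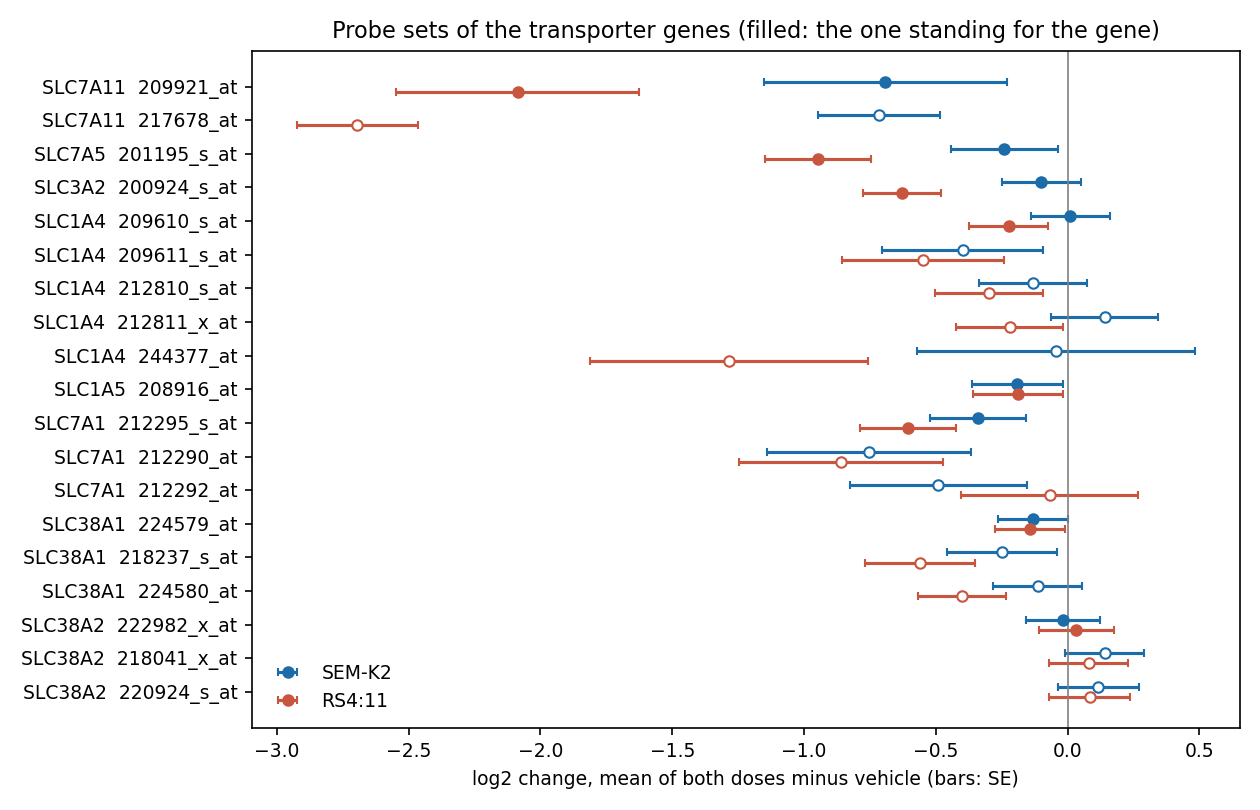
Log2 change, mean of both doses minus vehicle, of each probe set of the tested transporter genes in SEM-K2 (blue) and RS4:11 (red), with standard errors. Filled points are the probe sets that stand for the genes. The probe set that stands for SLC7A11 lies at -2.09 in RS4:11 and at -0.69 in SEM-K2. The second, 217678_at, is drawn at -2.69 and -0.72, but its treated arrays lay under 4. For it only a bound of at least 5.11-fold lower is read in RS4:11, and no difference in SEM-K2. The SLC38A2 probe sets lie near 0.

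Likeness between genes was measured over the 12 arrays, which share their dose groups and replicate sets, after subtraction of each line's mean. Pearson's r was 0.928 for SLC7A11 with SLC7A5, 0.898 for SLC7A5 with SLC3A2 and 0.852 for SLC7A11 with SLC3A2. SLC7A1 correlated with SLC7A11 at 0.621, and at 0.910 once the replicate means were also subtracted. SLC1A5 correlated with SLC7A11 at 0.0616 and SLC38A2 at 0.291, and at 0.488 and -0.063 with the replicate means subtracted. Within a line, over 6 arrays each, r was 0.713 in SEM-K2 and 0.957 in RS4:11 for SLC7A11 with SLC7A5, 0.704 and 0.926 for SLC7A5 with SLC3A2, 0.305 and 0.933 for SLC7A11 with SLC3A2, and 0.0951 and 0.822 for SLC7A11 with SLC7A1, again SEM-K2 before RS4:11. The values over 12 arrays thus combine higher r in RS4:11 with lower r in SEM-K2. The 6 genes outside the family closest to SLC7A11 by this measure were CARS1 (0.957) and TARS1 (0.929), which charge cysteine and threonine onto tRNA, ZNF23 (0.923), EXOSC6 (0.918), the endoplasmic reticulum chaperone HSPA5 (0.916) and NELL1 (0.902). Closest to the mean of the 8 members were CARS1 (0.942), PYCR3 (0.937), PSAT1 (0.935), HSPA5 (0.934), TARS1 (0.923) and KANSL2 (0.923).

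Amino acid transporters outside the family showed no common shift. Of 35 listed, 34 had a probe set and 19 were tested, with median log2 differences in the mean of both doses of 0.020 in SEM-K2 (6 of 19 below 0) and -0.036 in RS4:11 (12 of 19). In SEM-K2 39.2% and in RS4:11 44.8% of all genes lay below 0, beside 7 of the 8 members in each line. The only one called was SLC6A6, the taurine transporter, which fell in SEM-K2. It read 5.43 and 5.65 on SEM-K2 vehicle arrays, 4.79 and 5.01 at EC50 and 4.38 and 4.30 at 3xEC50. The change was -1.20 ± 0.15 log2 at 3xEC50, with an adjusted p of 0.00968, where 0.824% of all genes were called. The call was lost without SEM-K2 vehicle replicate 2 (adjusted p = 0.101), without SEM-K2 3xEC50 replicate 2 (0.0944) and when only the SEM-K2 arrays were fitted (0.147). In RS4:11, where all of its arrays lay under 4, it read 3.39 and 3.16 on vehicle arrays and 2.73 to 2.87 on treated arrays.

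SLC1A3, a glutamate carrier, read 3.37 and 3.56 on SEM-K2 vehicle arrays, 4.73 and 5.60 at EC50 and 4.32 and 6.26 at 3xEC50. Its vehicle arrays lay under 4, so no difference is read, and the higher 3xEC50 value is from replicate 2, the array that stands apart in RNA quality. It was not called (adjusted p = 0.310). SLC7A6, another light chain of SLC3A2, read 9.68 and 9.67 on SEM-K2 vehicle arrays, 9.11 and 9.12 at EC50 and 8.96 and 8.95 at 3xEC50, a difference of -0.72 ± 0.19 at 3xEC50 that was not called (adjusted p = 0.188). In RS4:11 its difference was -0.46 ± 0.19. SLC16A10, a carrier of aromatic amino acids, and SLC38A5, a relative of SLC38A1, gave -0.82 ± 0.50 and -0.27 ± 0.34 in SEM-K2 at 3xEC50, or -1.21 and -0.62 without replicate 2. In RS4:11 SLC38A5 gave -0.50 ± 0.34, or -0.81 without vehicle replicate 1, and SLC16A10 read 3.95 and 5.27 on vehicle arrays and 3.49 and 4.32 at 3xEC50. None of these was called.

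Other ATF4 targets were taken from lists. All gene lists used here were chosen with earlier results of these arrays known. Within a line, the genes of a list are also compared with the same vehicle arrays. Their counts and p-values are therefore a description and support nothing. In RS4:11 all 13 tested genes of the aminoacyl tRNA synthetase list were below vehicle in the mean of both doses (44.8% of all genes), with a median of -0.48. Of these, 10 had an unadjusted p under 0.05 (5.93% of all genes), and none was called. WARS1, the tryptophan enzyme, gave -1.08 ± 0.27, CARS1 -0.86 ± 0.24, GARS1, the glycine enzyme, -0.79 ± 0.19, LARS1, the leucine enzyme, -0.54 ± 0.16 and TARS1 -0.48 ± 0.19 log2 at 3xEC50. VARS1, the valine enzyme, gave -0.48 ± 0.35. In SEM-K2, 11 of the 13 were below vehicle (39.2% of all genes), with a median of -0.18, and none was called.

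Of 13 tested synthetic enzymes under ATF4, 7 lay below vehicle in SEM-K2 (median -0.05) and 11 in RS4:11 (median -0.36), where 39.2% and 44.8% of all genes did, and none was called. PSAT1, of serine synthesis, read 11.28 and 10.83 on RS4:11 vehicle arrays, 10.28 and 9.80 at EC50 and 10.24 and 9.72 at 3xEC50. PYCR1, of proline synthesis, read 9.48 and 9.53, then 8.82 and 8.82, then 8.70 and 8.65 by rising dose in RS4:11. Neither gene's treated arrays reached its vehicle arrays. The 3xEC50 differences were -1.07 ± 0.24 for PSAT1 and -0.83 ± 0.15 for PYCR1, with adjusted p of 0.423 and 0.270. CBS and ASS1 also met the rule for naming, and neither was called. CBS read 5.04 and 4.53 on SEM-K2 vehicle arrays and 4.11 and 3.78 at 3xEC50. ASS1 lay under 4 on all 6 SEM-K2 arrays, where no difference is read, and between 9.28 and 10.62 in RS4:11.

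**Figure D4:**
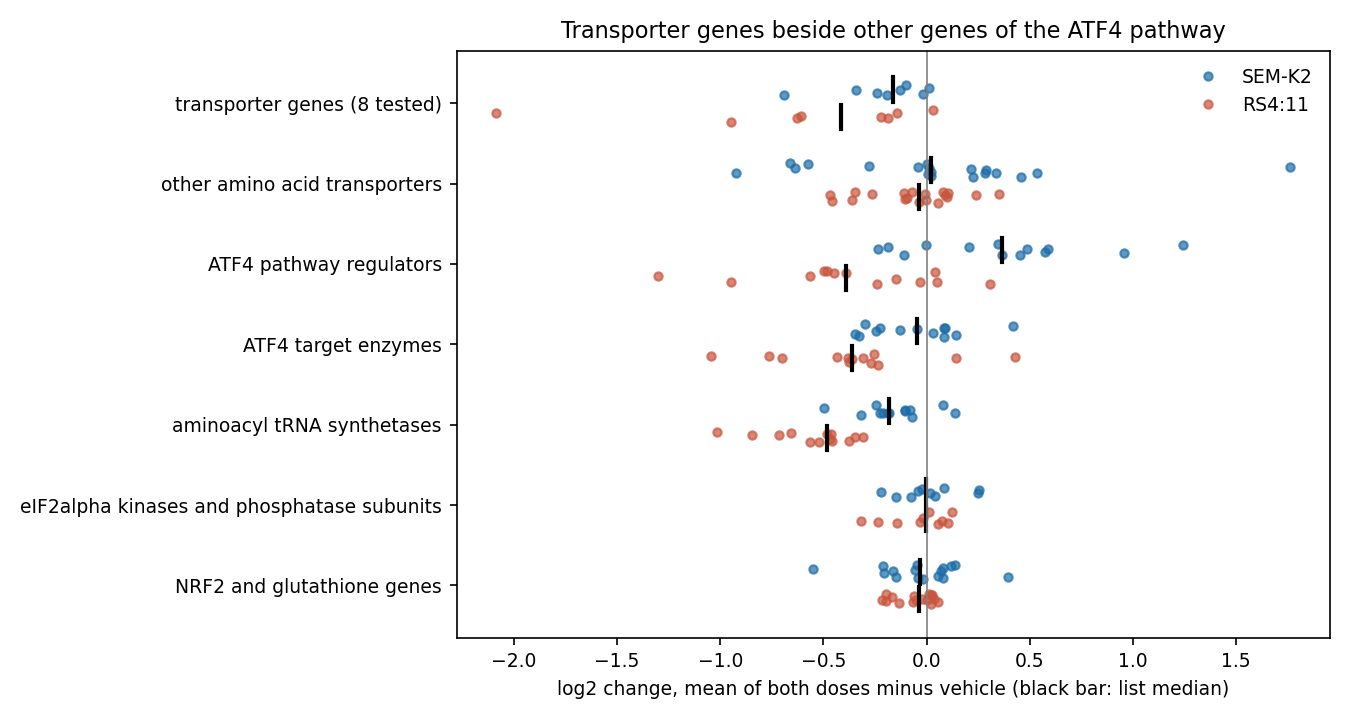
Log2 change, mean of both doses minus vehicle, of the 8 tested transporter genes and of 6 gene lists around them (1 point a gene) in SEM-K2 (blue) and RS4:11 (red), with black bars at the list medians. The medians in RS4:11 are -0.41 for the transporter genes and -0.48 for the tRNA synthetase list, and those of the ATF4 regulators are 0.36 in SEM-K2 and -0.39 in RS4:11.

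The medians of the pathway's regulators had opposite signs in the lines. ATF4 itself read 12.61 and 12.15 on SEM-K2 vehicle arrays, 12.43 and 12.25 at EC50 and 12.31 and 12.09 at 3xEC50, and 13.06 and 12.80, 12.76 and 12.25, and 12.80 and 12.34 in RS4:11 in the same order. Its log2 differences at EC50 and 3xEC50 were -0.04 ± 0.24 and -0.18 ± 0.24 in SEM-K2 and -0.42 ± 0.24 and -0.36 ± 0.24 in RS4:11, none of them called. At 3xEC50 they were -0.07 without SEM-K2 3xEC50 replicate 2 and -0.23 without RS4:11 vehicle replicate 1. Arrays measure its mRNA, while ATF4 is controlled largely through translation. CEBPB, a C/EBP partner, read 9.14 and 8.44 on SEM-K2 vehicle arrays, 9.07 and 9.18 at EC50 and 9.24 and 9.13 at 3xEC50. In RS4:11 it read 9.52 and 9.33, then 8.66 and 8.33, then 8.65 and 8.26. Its 3xEC50 difference was 0.39 ± 0.24 in SEM-K2 and -0.97 ± 0.24 in RS4:11, and the difference of the responses to the mean of both doses had an adjusted p of 0.485.

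Of 13 tested regulators, 4 lay below vehicle in SEM-K2 (median 0.36) and 10 in RS4:11 (median -0.39), where 39.2% and 44.8% of all genes did. For the difference of the responses, SEM-K2 minus RS4:11, 1 of the 13 was below 0 (40.7% of all genes), with a median of 0.91 against 0.047 over all genes and 0.25 for the 8 transporters. No regulator was called in it. The 1 regulator called in SEM-K2 was PPP1R15A, a phosphatase subunit that acts on eIF2alpha. In RS4:11 at 3xEC50 it gave 0.34 ± 0.25, or 0.56 without RS4:11 vehicle replicate 1. In SEM-K2 at 3xEC50 it rose by 1.51 ± 0.25 log2 (adjusted p = 0.0312), where 0.824% of all genes were called. This call was lost when any 1 treated array of either line, or SEM-K2 vehicle replicate 2, was left out. With each array left out in turn, the rise ranged from 1.11 to 1.90 log2. The call was also lost with every probe set tested for itself (adjusted p = 0.0634), without a filter (0.114) and with only the SEM-K2 arrays fitted (0.220). DDIT3, which encodes the stress factor CHOP, read 7.46 and 7.32 on SEM-K2 vehicle arrays, 8.33 and 7.97 at EC50 and 8.42 and 8.67 at 3xEC50, where its difference of 1.15 ± 0.22 had an adjusted p of 0.0588. In RS4:11 the DDIT3 difference was -0.20 ± 0.22. ATF3, another stress factor, gave 0.91 ± 0.29 in SEM-K2 and -0.56 ± 0.29 in RS4:11 at 3xEC50. SESN2, a leucine sensor, read 4.90 and 4.89 on SEM-K2 vehicle arrays, against 6.63 and 5.45 on RS4:11 vehicle arrays, and gave -0.47 ± 0.43 in SEM-K2 and -1.40 ± 0.43 in RS4:11 at 3xEC50. These were -0.02 without SEM-K2 3xEC50 replicate 2 and -0.81 without RS4:11 vehicle replicate 1. DDIT3, ATF3 and SESN2 were not called in either line.

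A list of 10 genes for eIF2alpha, its kinases and phosphatase subunits, without PPP1R15A, which was listed among the regulators, had medians of -0.004 in SEM-K2 and -0.002 in RS4:11. EIF2AK1, a heme-sensing kinase, gave 0.36 ± 0.19 in SEM-K2 at 3xEC50 (0.18 without replicate 2). EIF2S1, which encodes eIF2alpha, gave -0.29 ± 0.18 in RS4:11 (-0.44 without vehicle replicate 1). PPP1R15B gave -0.09 ± 0.19 in SEM-K2 and 0.10 ± 0.19 in RS4:11 (0.34 without vehicle replicate 1). SLC7A11 is also a target of NRF2, the antioxidant factor encoded by NFE2L2, and is repressed by BACH1. Of 16 tested NRF2 and glutathione genes, 9 lay below vehicle in each line, where 39.2% of all genes in SEM-K2 and 44.8% in RS4:11 did. The list medians were -0.03 in SEM-K2 and -0.04 in RS4:11, and none of the 16 was called. NFE2L2 gave -0.34 ± 0.23 and -0.14 ± 0.23 in SEM-K2 and RS4:11 at 3xEC50, and BACH1 0.17 ± 0.16 and 0.11 ± 0.16. The NFE2L2 values were 0.02 without SEM-K2 3xEC50 replicate 2 and 0.03 without RS4:11 vehicle replicate 1. GCLC and GCLM, the subunits of the first enzyme of glutathione synthesis, gave -0.24 ± 0.13 and -0.25 ± 0.20 in SEM-K2, and -0.08 ± 0.13 and 0.02 ± 0.20 in RS4:11. Without those arrays GCLM gave -0.13 in SEM-K2 and 0.28 in RS4:11, and GCLC -0.14 in RS4:11. GPX4, which reduces lipid peroxides with glutathione, gave 0.39 ± 0.16 in SEM-K2 and 0.08 ± 0.16 in RS4:11 (0.04 without vehicle replicate 1). The thioredoxin reductase TXNRD1 gave 0.10 ± 0.17 in SEM-K2 (0.0062 without 3xEC50 replicate 2) and -0.27 ± 0.17 in RS4:11. The glutathione conjugate exporter ABCC1 gave -0.09 ± 0.18 in SEM-K2 (-0.26 without it) and -0.33 ± 0.18 in RS4:11. MYC, which also acts on SLC7A5 and SLC1A5, gave -0.47 ± 0.19 in SEM-K2 and -0.31 ± 0.19 in RS4:11. Of the 9 regulators named for the family, 7 were tested, with medians of 0.074 in SEM-K2 and -0.24 in RS4:11, and none was called.

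Beside the promoter letters, the RS4:11 differences in the mean of both doses were -0.22 for SLC1A4, -0.19 for SLC1A5, -0.14 for SLC38A1, -0.61 for SLC7A1 and -0.63 for SLC3A2, the tested members with TGATGNAA in a window. They were -0.95 for SLC7A5 and 0.03 for SLC38A2, whose windows do not hold it. Without RS4:11 vehicle replicate 1 the differences were -0.08 for SLC1A4, -0.04 for SLC38A1 and 0.15 for SLC38A2. A relation between the letters and the values was not tested.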

How the data were processed

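Total RNA of the 12 cultures was hybridised to Affymetrix U133 Plus 2 arrays. The deposited values are GCRMA-normalized, per the submitters' processing notes, with no version or scale stated. The deposited values were read as log2, as GCRMA returns them, from their range, 0.636 to 16.2, with array medians of 3.13 to 3.16. No unmapped sample column was used, and scanner files were not used here. Of 54675 probe sets, 41097 had 1 symbol in the platform annotation, 1801 several and 11777 none listed; 62 controls were left out.

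The highest-mean probe set stood for each of 19775 genes, and 10561 exceeded 4 on at least 2 arrays. The 6 group means were fitted over all arrays with limma 3.58.1 in R 4.3.3 (lmFit, eBayes; 6 residual and 3.27 prior degrees of freedom), with Benjamini-Hochberg adjustment over all genes tested and calls at 0.05. The script was tested on simulated data. The number of arrays limits the precision. The members and lists were chosen with earlier results of these data known. The text names all members; from each list, genes called against vehicle or between line responses (up to 4), and up to 3 per line with the largest change at 3xEC50 and no overlap with vehicle; ATF4, DDIT3, NFE2L2, BACH1 and MYC; and the 6 genes most correlated with SLC7A11 or with the member mean.

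Replicate numbers come from the titles. Deviations of same-numbered arrays from their group means correlated in all 15 pairs of groups, at 0.191 to 0.601, so the numbers were taken to pair the arrays, and the fit with replicate as a block was run beside the main one. Other alternatives were other filters, probe set choices, centring, variance model, fewer samples and each array left out.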

Additional observations from a re-analysis of the deposited data

How the results depend on the processing

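In RS4:11 the mean difference of both doses stayed below 0 for SLC7A11 (-2.47 to -1.59), SLC7A5 (-1.07 to -0.82), SLC3A2 (-0.77 to -0.48) and SLC7A1 (-0.76 to -0.45). Most of the 22 settings cannot change this difference, among them the blocks, the variance model, the filters and fits without a SEM-K2 array. The ranges come from leaving out RS4:11 arrays, from centring and from averaging probe sets, so the number of settings is no measure of stability. With the replicate block, 2 members were called in the RS4:11 mean of both doses and 2 on vehicle between lines; with the replicate block within line, 1 and 2. Within line the pairing also ended the RS4:11 3xEC50 call of 217678_at (adjusted p = 0.0524), and it changed no other call of a member. With all probe sets of a gene averaged, the median log2 change was -0.50 in RS4:11 at EC50 and -0.50 in the mean of both doses, -0.042 for SEM-K2 3xEC50 against EC50 and 0.36 for the line difference at EC50, 2 members were called on vehicle, and 4 SEM-K2 members had all treated arrays below vehicle. Without a filter, which adds SLC6A9, the medians were -0.13, -0.32 and -0.22 in RS4:11 at EC50, 3xEC50 and their mean, and 0.10 for the line difference at EC50. With arrays centred on their median, SEM-K2 medians were -0.25 at 3xEC50 and -0.24 in the mean. With each array left out in turn, medians ranged from -0.41 to -0.28 (RS4:11 EC50), -0.17 to 0.027 (RS4:11 3xEC50 against EC50), 0.10 to 0.29 (line difference at EC50) and 0.17 to 0.39 (line difference at 3xEC50). The members called on vehicle numbered 1 to 2, and those with all treated arrays below vehicle 2 to 5 in SEM-K2 and 4 to 6 in RS4:11. The call of the second SLC7A11 probe set, 217678_at, in the RS4:11 mean was lost without RS4:11 vehicle replicate 1 (adjusted p = 0.0949) or 2 (0.171), RS4:11 EC50 replicate 2 (0.0508), RS4:11 3xEC50 replicate 2 (0.0784) or either SEM-K2 EC50 array (0.0549). Causes of these shifts were not tested. SLC7A11 varied most between replicates, with a pooled SD of 0.63 against 0.11 to 0.24 for the other 7 members, which limits its precision.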
